A study of Mus musculus with 2 samples.

Results

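Glutathione transferases join the tripeptide glutathione to reactive, electrophilic molecules, which makes them water-soluble and ready for export. The 10 genes described here are mouse genes of the cytosolic enzymes: Gsta2, Gsta3 and Gsta4 of the alpha class, Gstm1, Gstm2, Gstm3, Gstm4 and Gstm6 of the mu class, Gstp1 of the pi class and Gstt1 of the theta class. They were chosen by gene name. The platform annotation assigned 16 of the 45101 probe sets of the array to them, of which 15 named 1 gene and 1 named several. All 10 genes were measured, out of 11693 genes compared on the arrays.

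Both arrays held RNA of precancerous liver from mice with a hepatocyte-specific Pik3ca transgene, which drives the phosphoinositide 3-kinase pathway. The mice were Pik3caTg;Kdm3aKO, which lack the histone demethylase KDM3A, or Pik3caTg;Kdm3aWT, which keep it. The shared transgene means that no array shows liver without it. The study set these livers side by side to ask what Kdm3a does in tissue on the way to a tumour. The sources used here do not give the age, sex or strain of the mice, the promoter of the transgene, the type of Kdm3a knockout or whether RNA was pooled. Each genotype had 1 array, so no difference has a replicate check or a test, and values describe these arrays rather than the genotypes. The number of arrays limits the precision. Ratios below are log2 of knockout signal over wild-type signal, where -1 and 1 mark a 2-fold difference.

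Liver carries large amounts of these enzymes, mainly in hepatocytes. The classes differ in preferred substrates, and several alpha, mu and pi genes respond to the stress-sensing transcription factor Nrf2 and to the drug-sensing nuclear receptor CAR. In rat liver, the pi-class enzyme is a classical marker of preneoplastic foci.

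The labels were first checked on Kdm3a, whose signal was 61.6 in the knockout array and 720 in the wild-type array. Whether that probe set reads the deleted stretch is unknown. Hepatocyte genes were at high signal on both arrays: albumin (Alb) read 53356 in the knockout and 44119 in the wild type. Of 7 measured hepatocyte markers, 7 had a positive ratio (5 after quantile normalization and 3 after loess), with a median of 0.31 that was 0.011 after quantile normalization and -0.0067 after loess. They were read near the brightest signals of the arrays, 75018 in the knockout and 58523 in the wild type, and the part of that in their ratios was not tested. All 10 measured cholangiocyte and progenitor markers were at least 2-fold lower in the knockout by their brightest probe sets, or 8 with scaling on poly-A controls. Their summed signal was 7695 in the knockout against 21577 in the wild type, mostly from Krt8 (6091 against 13288). Dimmer kept probe sets of Krt8, Sox9 and Cd24a also passed 2-fold. A dimmer one of Epcam gave a ratio of -0.08, and dimmer ones of Tspan8 gave -1.42 and 0.69. Among 10 stellate cell and fibroblast markers, the knockout was 2-fold or more below the wild type for 7 (summed signal 16134 against 35716). Of 12 macrophage markers, 5 were that much lower and 3 higher (27389 against 41063), the higher ones being under the floor in the wild type. Both measured neutrophil markers were lower, S100a8 (-1.73) and S100a9 (-2.18). Of 6 lymphocyte markers, 2 were lower and 1 was higher, or 3 and 1 with scaling on the hybridisation controls. The higher one was the immunoglobulin gene Ighm (3.44 by its brightest probe set, from 0.19 to 3.44 over 5 kept probe sets). Cd8a had a ratio of 0.64 by its brighter probe set and -1.33 by its other kept one. Of 8 endothelial markers 1 was lower, and both erythroid markers lay within 2-fold. In bulk tissue, fewer cells of a type and less RNA per cell cannot be told apart, and the part of these markers in the transferase values was not tested.

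All 5 mu genes of the set had a negative ratio, and 3 of them were at least 2-fold lower in the knockout: Gstm3, Gstm2 and Gstm4. Among the 3 alpha genes, Gsta2 was lower and Gsta3 and Gsta4 were higher, all within 2-fold. Gstp1 was nearly equal on both arrays, and Gstt1 was 1.75-fold higher in the knockout. The mu median was -1.52, the alpha median 0.49, and the median of all 10 genes was -0.56, against -0.02 over all genes compared. Thus 3 of 10 transferases passed 2-fold downwards and 0 upwards. Over all 11693 genes, 1048 (8.96%) lay past 2-fold on the lower side and 448 (3.83%) on the higher side. Scaling on the poly-A controls gave 775 lower and 707 higher genes, and scaling on the hybridisation controls 1277 and 307. The count of 3 lower and 0 higher transferases was the same under all 5 other scalings. The difference between classes has no test.

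**Figure D1:**
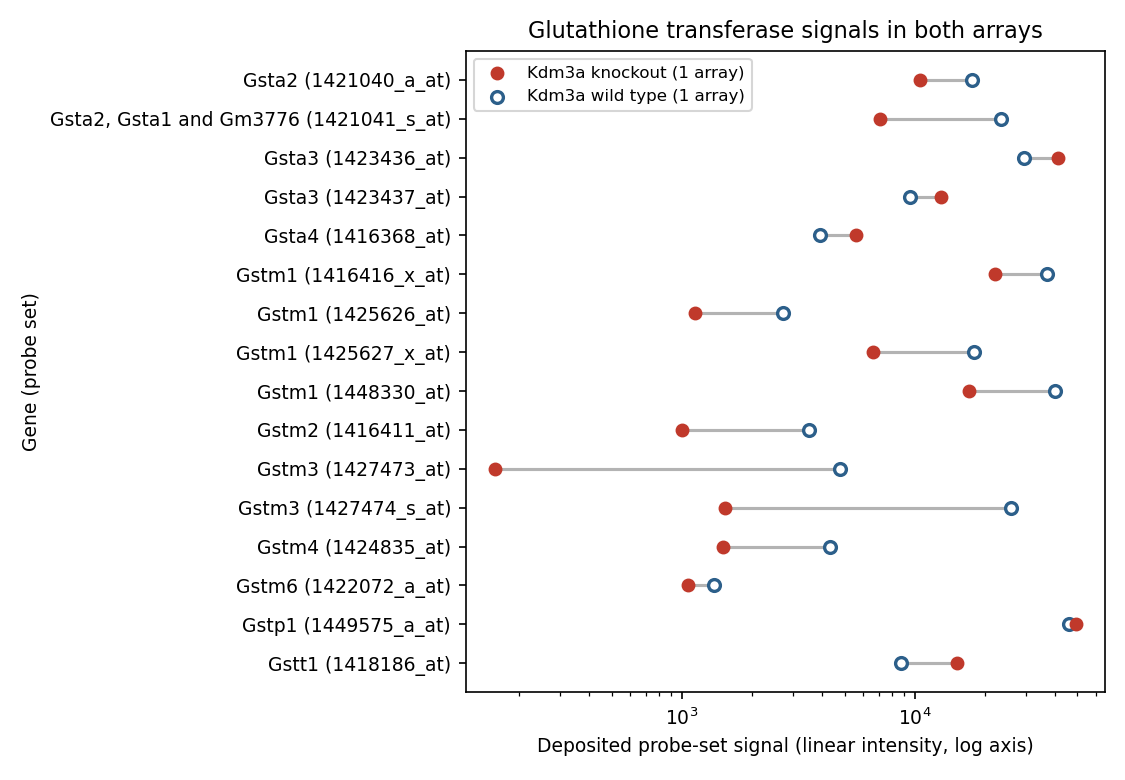
Signals of the 16 probe sets that name a glutathione transferase of the set, on a log axis, with the knockout array as filled points and the wild-type array as open points. Every mu-class row has its filled point to the left, most widely for Gstm3, while Gsta3, Gsta4 and Gstt1 have it to the right and the Gstp1 points nearly coincide.

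Gstm3, a mu enzyme known in mouse liver to be induced through Nrf2, had the lowest ratio of the family. Its brighter probe set read 1530 in the knockout and 25999 in the wild type, a log2 ratio of -4.09 that placed it at rank 8 from the bottom of 11693 genes. Its other probe set read 157 in the knockout and 4782 in the wild type, a ratio of -4.93. The knockout thus held 5.89% of the wild-type signal by the brighter probe set and 3.28% by the other. The brighter probe set carries the _s_at ending, which marks probes that may match several transcripts, and the other does not. Neither value was near the floor of 46.5, the signal under which values were treated as unmeasured.

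Gstm2 read 1003 in the knockout and 3500 in the wild type, a ratio of -1.80 from its only probe set. Gstm4 read 1498 in the knockout and 4308 in the wild type, a ratio of -1.52, also from 1 probe set. They ranked 253 and 457 from the bottom. Their knockout signals were 28.7% and 34.8% of the wild-type signals, against 5.89% for Gstm3.

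Gstm1, the broadly acting mu enzyme of mouse liver, was read by 4 probe sets, all lower in the knockout. The one used for the gene because of its mean signal, an _x_at probe set, read 22184 in the knockout and 37042 in the wild type, a ratio of -0.74. The other 3 all passed 2-fold. They read 17199 in the knockout against 39913 in the wild type (-1.21), 6595 against 17967 (-1.45) and 1133 against 2712 (-1.26). Gstm1 therefore lay within 2-fold by its brightest probe set alone. With the mean of its probe sets, or without those whose names end in _a_at, _s_at, _x_at or _f_at, it passed and 4 transferases were lower.

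Gstm6 had the mildest difference of the mu genes. It read 1062 in the knockout and 1380 in the wild type, a ratio of -0.38, which is smaller than 0.446, the SD that log2 ratios show among probe sets of a gene. That SD, taken over 4958 genes, is the nearest to a repeat measurement in these data. It compares different probe sets of a gene on the same arrays, at all kept signals. It is thus not pure measurement error, and it covers no difference between animals. Mu transcripts are close in sequence, so a probe of one may read another, and the share of such reading cannot be told from these values.

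**Figure D2:**
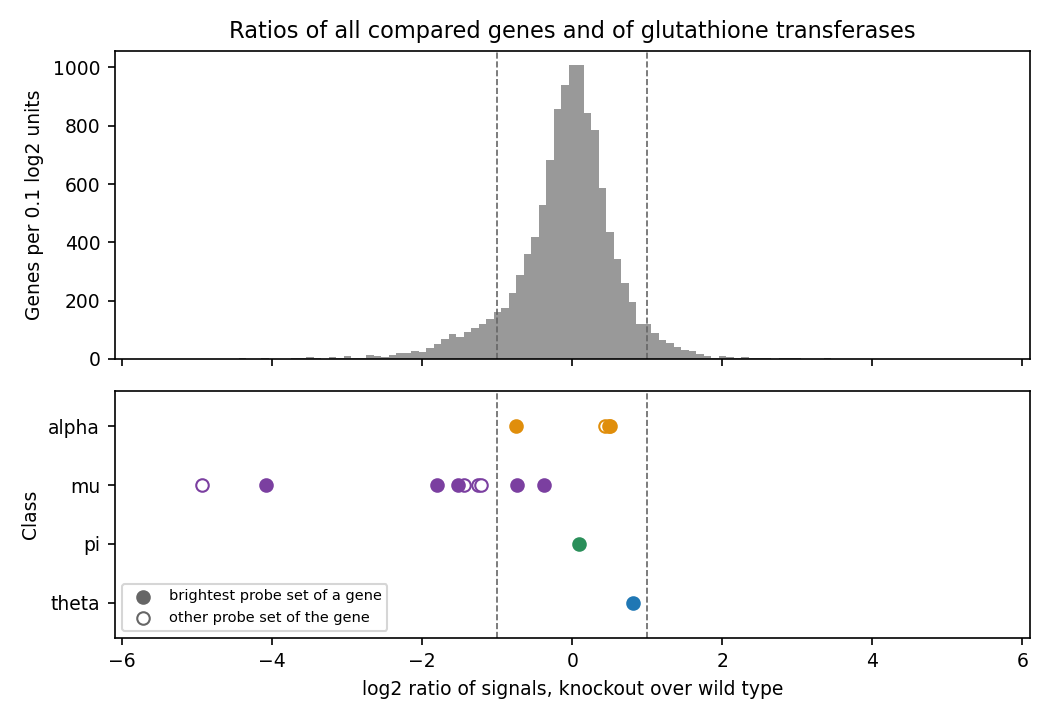
Upper panel, the number of genes in each 0.1-wide bin of log2 ratio (knockout over wild type) for all 11693 genes; lower panel, the 15 probe sets naming 1 transferase, by class, with filled points for the probe set used for the gene and dashed lines at 2-fold. The mu probe sets lie between -4.93 and -0.38, all left of 0, and 7 of the 15 lie beyond the 2-fold line on the lower side.

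By probe set, 7 of the 15 that named 1 gene passed 2-fold downwards and 0 upwards, against 8.19% lower and 4.43% higher among the 19800 such probe sets kept. These 7 belong to 4 genes, since Gstm1 gave 3 and Gstm3 gave 2, so they are not independent.

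In the alpha class, Gsta2 reduces organic hydroperoxides as well as conjugating drugs. It read 10496 in the knockout and 17693 in the wild type, a ratio of -0.75. The 1 probe set that named several genes, Gsta2, Gsta1 and Gm3776, read 7088 in the knockout and 23425 in the wild type, a ratio of -1.72. It is assigned to no single gene here. If it counted for each gene it names, Gsta2 would be 3.30-fold lower in the knockout and 4 transferases would pass 2-fold.

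The other alpha genes went the opposite way. Gsta3, whose mouse enzyme is known for detoxifying the aflatoxin epoxide, had 2 probe sets that gave nearly the same ratio. The brighter read 41464 in the knockout and 29596 in the wild type (0.49), and the other 12980 and 9563 (0.44). Gsta4, which conjugates the lipid peroxidation product 4-hydroxynonenal, read 5587 in the knockout and 3932 in the wild type (0.51). Both genes kept a positive ratio under every scaling, but Gsta3 stood at 0.20 after quantile normalization, and these ratios are close in size to the within-gene SD of 0.446.

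Gstp1 had signals of 49207 in the knockout and 46167 in the wild type, a ratio of 0.09 whose sign turned under 4 of 5 other scalings, with a range from -0.22 to 0.28. Gstp1 was thus read near the brightest signals of the arrays. Gstt1, a theta enzyme that acts on small halogenated molecules, read 15279 in the knockout and 8730 in the wild type, a ratio of 0.81 that ranged from 0.65 to 0.99 under the other scalings.

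**Figure D3:**
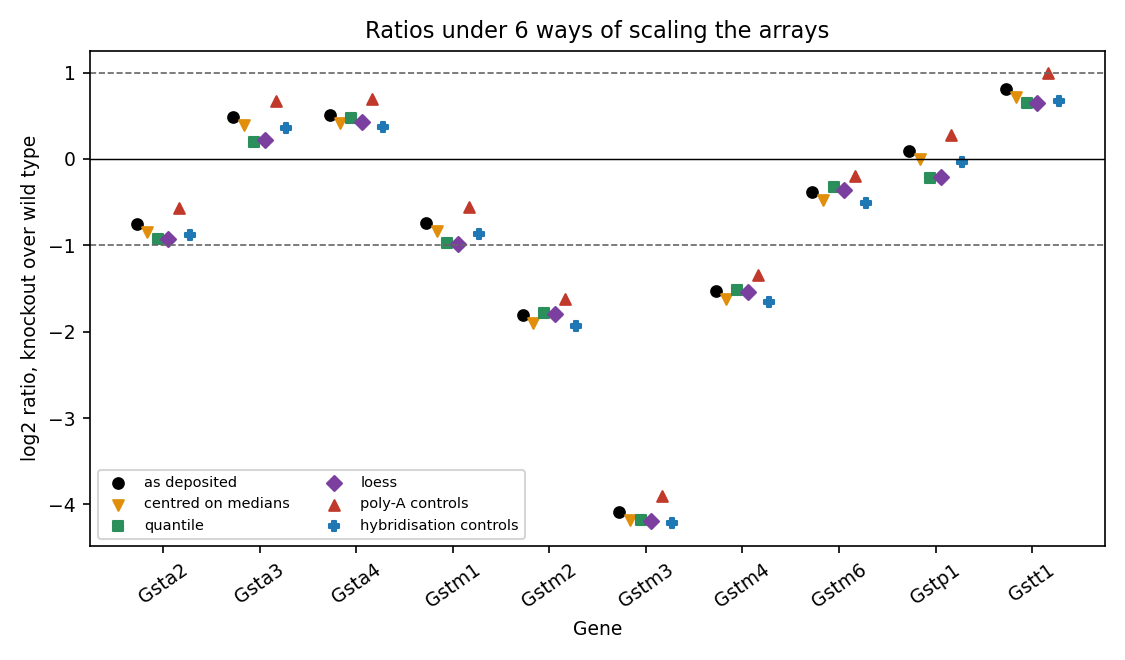
The log2 ratio (knockout over wild type) of each of the 10 genes with the arrays as deposited and under 5 other scalings, with dashed lines at 2-fold. Gstm2, Gstm3 and Gstm4 stay beyond the lower line in each case, Gstp1 straddles 0, and the other 6 genes stay within 2-fold on the same side of 0.

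The mu genes lie in a row on chromosome 3, in the order Gstm5, Gstm7, Gstm6, Gstm3, Gstm2, Gstm1 and Gstm4 in the RefSeq annotation of GRCm38.p6, from which no coordinates are given for the row. The 4 lowest ratios of the row belonged to 4 neighbours in it, Gstm3, Gstm2, Gstm1 and Gstm4. Gstm5 had a ratio of -0.45 and Gstm7, next to it, one of 0.58 by its brighter and -0.12 by its dimmer probe set. Among 5 measured neighbours outside the row, ratios ran from -1.17 for Csf1, the macrophage growth factor, to -0.04 for Ahcyl1, with a median of -0.23. Ahcyl1 turned positive with scaling on the poly-A controls. Neighbours on the Gstm4 side lay within 2-fold: Ampd2 read 1679 in the knockout and 1967 in the wild type.

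The theta genes form another row, on chromosome 10, and all 3 measured there were higher in the knockout. Gstt3 read 3859 in the knockout and 1117 in the wild type (1.79), and Gstt2 read 7735 against 3238 (1.26). Both passed 2-fold under all 5 other scalings. Gstt4 had no kept probe set. The adjacent Ddt, which encodes D-dopachrome tautomerase, read 22169 in the knockout and 10000 in the wild type (1.15), while Mif, on the other side, read 18095 and 15815 (0.19, and below 0 after quantile normalization and loess). The theta cluster and the mu cluster thus had ratios of opposite sign apart from Gstm7, a description that rests on 1 array a group.

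**Figure D4:**
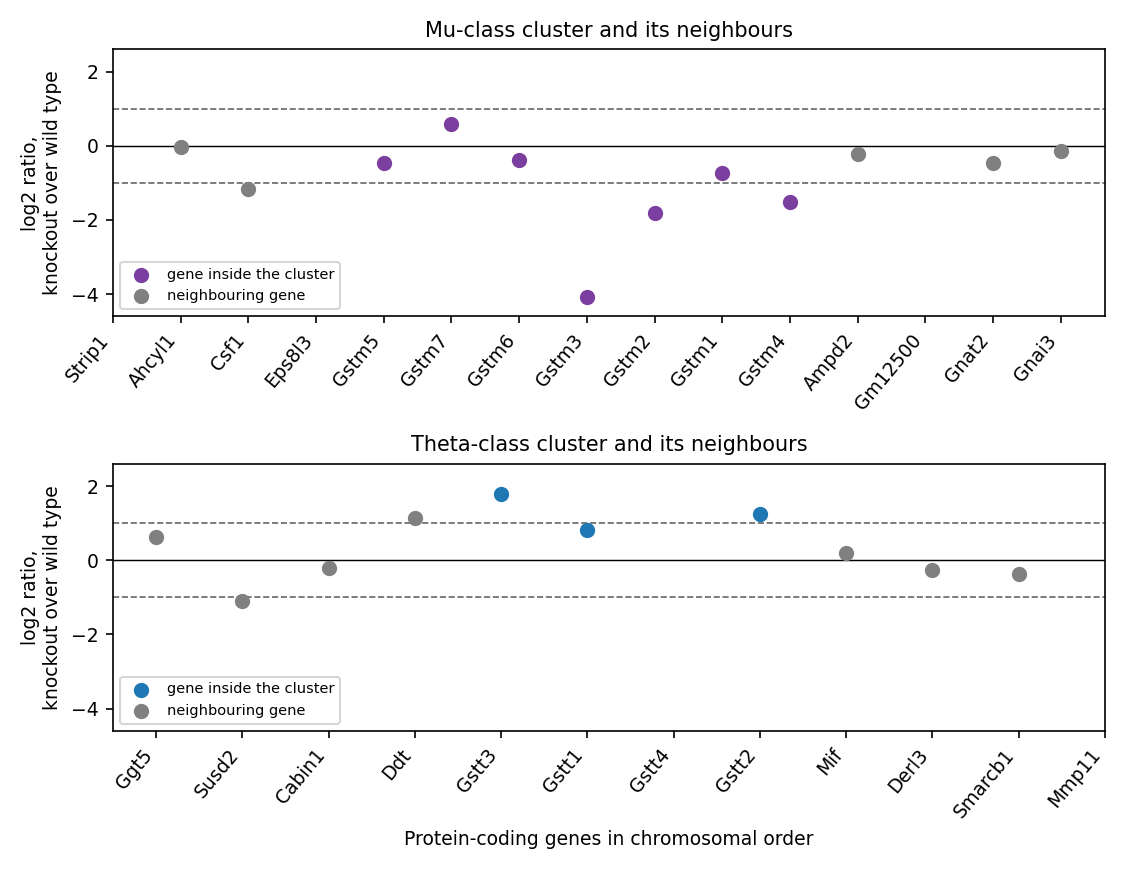
The log2 ratio (knockout over wild type) of protein-coding genes in chromosomal order through the mu cluster (upper panel) and the theta cluster (lower panel), with coloured points inside the cluster, grey points for neighbours and dashed lines at 2-fold. Genes with no point had no kept probe set. Gstm3 stands lowest at -4.09, and the 3 theta points lie between 0.81 and 1.79.

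Promoter windows of RefSeq on GRCm38.p6, 250 bases before to 50 after a start, were held for 9 of the 10 genes. Gsta4 had no window. The windows of Gstm3, Gstm1 and Gstm2 are printed because these neighbours had negative ratios and shared the longest runs of letters with Gstm3. The window of Gstm4, a neighbour with a ratio of -1.52, is not printed, nor is another window held for Gstm1. Capitals mark the longest runs of letters that the Gstm3 window shares with the window of Gstm1 and with that of Gstm2.
Gstm3 (chr3:107969125-107969424, minus strand): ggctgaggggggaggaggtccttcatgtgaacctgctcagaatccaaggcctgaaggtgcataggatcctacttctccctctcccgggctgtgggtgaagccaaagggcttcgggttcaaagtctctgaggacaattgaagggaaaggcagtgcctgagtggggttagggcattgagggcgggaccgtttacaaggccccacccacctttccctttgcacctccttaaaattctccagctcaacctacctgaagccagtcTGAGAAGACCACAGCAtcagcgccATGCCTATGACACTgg
Gstm1 (chr3:108017769-108018068, minus strand): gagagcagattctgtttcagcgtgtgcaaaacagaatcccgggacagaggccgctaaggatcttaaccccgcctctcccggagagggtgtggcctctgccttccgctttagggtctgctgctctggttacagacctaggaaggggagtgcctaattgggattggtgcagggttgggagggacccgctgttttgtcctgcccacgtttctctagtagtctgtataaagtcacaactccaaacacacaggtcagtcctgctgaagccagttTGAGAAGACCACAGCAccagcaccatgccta
Gstm2 (chr3:107986371-107986670, minus strand): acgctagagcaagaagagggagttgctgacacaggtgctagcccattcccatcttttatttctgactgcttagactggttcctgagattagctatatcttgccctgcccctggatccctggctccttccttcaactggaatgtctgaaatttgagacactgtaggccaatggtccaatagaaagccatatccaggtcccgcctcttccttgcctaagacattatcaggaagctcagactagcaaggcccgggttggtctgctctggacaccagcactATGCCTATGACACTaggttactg

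The run shared by Gstm3 and Gstm1 has 16 letters, and that shared by Gstm3 and Gstm2 has 14 and opens with the ATG at which translation begins. Each run was found in 2 of 32851 promoter windows, counting exact matches only. The window of Gstm7, a gene with a ratio of 0.58, holds a near match of the 14-letter run. The Gstm1 window ends inside the same letters, so these counts also depend on where windows end. Both lie after the start of transcription. The longest runs that the Gstm3 window shares with the windows of the other 6 genes had from 8 letters (Gsta2, Gstm4 and Gstp1) to 13 (Gstm6), that one being a run of pyrimidines found in 10 windows. Gstm4, at least 2-fold lower like Gstm2, shared no run longer than 8 letters with Gstm3 in its window.

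The windows were searched on both strands for TGACNNNGC, the core of the antioxidant response element bound by Nrf2, and for TGACTCA, the classical AP-1 site. The first is held by the windows of 14.0% of 27025 genes and the second by 5.95%. Among the 9 transferases, 1 held the first, Gsta3, and 1 held the second, Gstp1. Both windows are printed because they hold a match, with the matching letters in capitals.
Gsta3 (chr1:21240335-21240634, plus strand): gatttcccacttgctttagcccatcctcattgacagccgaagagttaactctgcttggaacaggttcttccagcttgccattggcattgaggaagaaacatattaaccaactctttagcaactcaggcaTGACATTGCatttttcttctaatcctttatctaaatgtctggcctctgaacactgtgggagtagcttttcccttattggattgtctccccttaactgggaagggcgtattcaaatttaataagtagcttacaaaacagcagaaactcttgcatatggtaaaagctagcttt
Gstp1 (chr19:4037863-4038162, minus strand): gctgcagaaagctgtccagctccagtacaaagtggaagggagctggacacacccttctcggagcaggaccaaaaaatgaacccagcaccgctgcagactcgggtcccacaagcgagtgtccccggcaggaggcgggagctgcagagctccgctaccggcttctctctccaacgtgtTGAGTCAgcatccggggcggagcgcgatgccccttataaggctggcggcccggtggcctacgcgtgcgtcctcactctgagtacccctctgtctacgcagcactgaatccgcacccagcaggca

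The Gsta3 match begins 121 bases before the start, and the Gstp1 match, on the opposite strand, begins 74 bases before it. The motifs can overlap in other genes, but not in these windows. A match is a description of letters and not a bound site, and the windows do not reach the distal elements known for some of these genes.

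Of 20 other listed glutathione transferases, 14 were measured. In the knockout, 3 of them passed 2-fold upwards and 2 downwards, and 9 lay within 2-fold, with a median of 0.31. That median was 0.065 after quantile normalization and 0.073 after loess, and poly-A scaling put 5 genes past 2-fold upwards. Besides Gstt3 and Gstt2, the kappa enzyme of mitochondria and peroxisomes, Gstk1, was higher, with 14572 in the knockout and 6975 in the wild type (1.06). Its ratio was under 1 in 4 of 5 other scalings. Gstz1, the isomerase of tyrosine breakdown, read 16101 in the knockout and 8360 in the wild type (0.95). The lower genes were below the floor in the knockout, so their folds are bounds. Hpgds, the prostaglandin D synthase of blood-derived cells, read 40.5 in the knockout and 139.7 in the wild type, and the microsomal Mgst2 was at least 2.91-fold lower. Under a floor at the 60th percentile of signal, neither was lower.

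Genes that make, recycle and use glutathione were measured in 28 of 30 cases. Of these, 7 passed 2-fold downwards, 1 passed it upwards and 20 lay within it. With scaling on the poly-A controls, 5 were lower, and the median of -0.14 became 0.04. Gpx2, a glutathione peroxidase of epithelia, read 102 in the knockout and 925 in the wild type (-3.19). Slc7a11, which imports cystine for glutathione synthesis, was at least 7.73-fold lower by its brighter probe set, with a knockout signal under the floor and 359 in the wild type. Its other kept probe set read 45.5 in the knockout, also under the floor, and 112 in the wild type (-1.27). The plasma peroxidase Gpx3 (-1.55) and the dipeptidase Dpep1 (-1.28), which trims glutathione conjugates, were the next lowest. Of the synthesis enzymes, Gss read 1527 in the knockout and 3374 in the wild type (-1.14), Gclc 6769 against 13228 (-0.97) and Gclm 8748 against 8647 (0.02, negative under 4 of 5 other scalings). Gss and Gclc were each past 2-fold under 4 of 5 other scalings. Their other kept probe sets gave -1.55 for Gss and -1.32 for Gclc, and that of Gclm gave -0.18. Cth, which makes cysteine from cystathionine, was the higher gene, with 20818 in the knockout and 8869 in the wild type (1.23).

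Among transporters that export conjugates and drugs, 8 of 10 were measured, of which 2 were lower past 2-fold and 1 was higher. Abcc4 read 459 in the knockout and 2216 in the wild type (-2.27), and Abcc1 read 80.8 against 311 (-1.95). Abcc6 was the higher gene, with 1933 in the knockout and 776 in the wild type (1.32). Abcc2, the canalicular pump that carries glutathione conjugates into bile, read 6531 in the knockout and 6822 in the wild type, a ratio of -0.06 that turned positive with scaling on the poly-A controls.

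Of 29 measured Nrf2 regulators and targets that are not transferases, 10 passed 2-fold downwards, 0 upwards, and 25 had a negative ratio, with a median of -0.59. The lower genes numbered from 7 to 11 under the other scalings. Cbr3, a carbonyl reductase, read 617 in the knockout and 13369 in the wild type (-4.44), the lowest ratio of this list. Srxn1, which repairs oxidised peroxiredoxins, was next (-2.66, from -2.66 to -0.39 over 4 probe sets), followed by Pgd of the pentose phosphate pathway (-2.35) and the quinone reductase Nqo1 (592 in the knockout and 2743 in the wild type, -2.21). Nfe2l2, the gene of Nrf2, read 3080 in the knockout and 4119 in the wild type (-0.42), and its other probe set gave 0.15. Mafg, a binding partner of Nrf2, had the highest ratio of the list (0.52). Keap1, the inhibitor of Nrf2, read 1096 in the knockout and 1368 in the wild type (-0.32). With 1 array a group, no association between this list and the mu genes can be tested.

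The receptors CAR, PXR and AhR and the cytochrome P450 genes they control are the other drug-sensing system of the liver. Of 17 measured, 4 passed 2-fold upwards in the knockout and 0 downwards by their brightest probe sets, with a median of 0.24. Of these ratios, 13 were positive and 4 negative. Dimmer kept probe sets passed 2-fold downwards for Alas1 (-1.18, against -0.57 by the brighter) and Cyp1b1 (-1.35, a bound). Cyp2b10, the classical target of CAR in mouse liver, read 1276 in the knockout and 323 in the wild type (1.98). Cyp2c29 read 31631 against 8942 (1.82), Cyp1a2 9435 against 4243 (1.15), and Nr1i3, the gene of CAR, 4322 against 1819 (1.25). Cyp1b1 (-0.77) had the lowest ratio of the list. Cyp2c and Cyp2b genes have close relatives that the same probes could read.

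**Figure D5:**
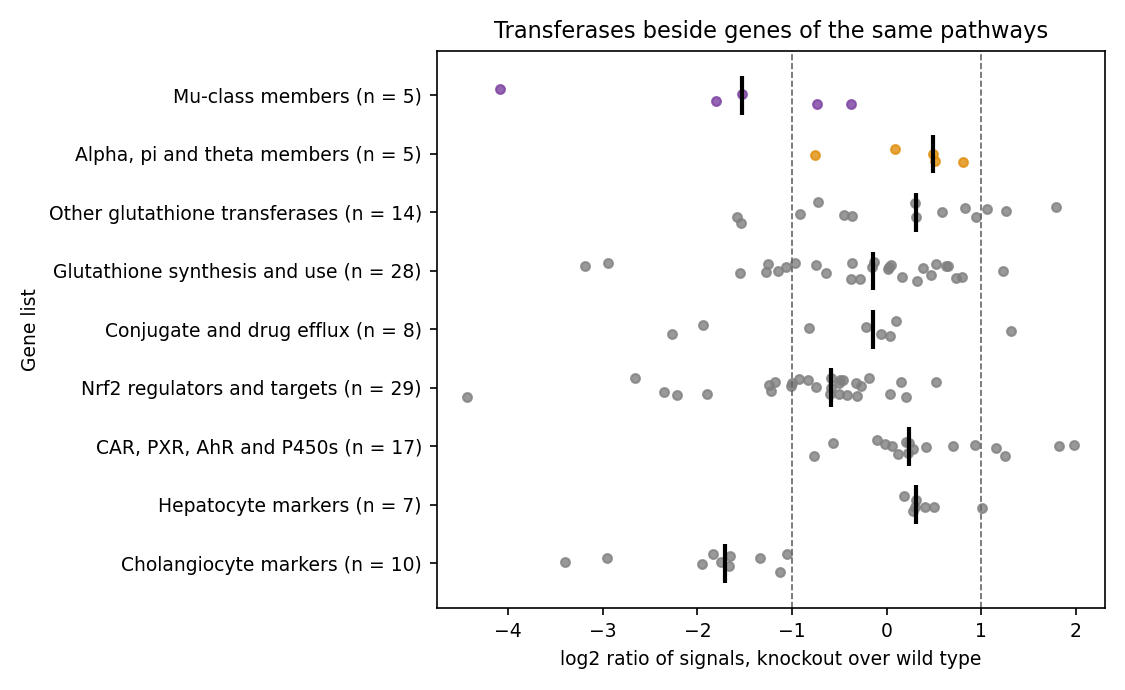
The log2 ratio (knockout over wild type) of each measured gene in 9 lists, with black bars at list medians and dashed lines at 2-fold; vertical scatter within a row carries no value. The cholangiocyte row has the lowest median at -1.71, followed by the mu row at -1.52 and the Nrf2 row at -0.59. The other transferases, the CAR, PXR and AhR row and the hepatocyte markers have medians from 0.24 to 0.31, the last of them -0.0067 after loess.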

How the data were processed

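Total RNA of mouse liver was labelled with biotin and hybridised to Affymetrix expression arrays, per the labels' protocols. The authors deposited 1 intensity value for each probe set and array, on a linear scale. The submitters' processing notes name MAS5. Version, settings, detection calls and build were not given in the sources used here. With 2% cut from each end, the mean signal was 500.004 on either array, so both had been scaled before deposit.

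Probe sets were named through the platform annotation, with symbols updated by gene identifier (34754 of 34945 probe sets naming 1 gene). Values under 46.5, the 40th percentile of both arrays, were raised to that floor, and ratios with a floored value are bounds. Probe sets were kept at a mean signal of at least 73.7, the median of such means. All 16 transferase probe sets passed, on both arrays well above the floor. A gene took its brightest kept probe set naming it alone, and genes were counted at 2-fold. Named genes were the 10 transferases and, per list, up to 4 at least 2-fold changed in each direction or otherwise the extremes. Gss, Gclc, Gclm, Abcc2, Nfe2l2, Keap1, Gstz1, Alb, Gstm5, Gstm7, Alas1, Cd8a and the neighbouring genes were added after their values were seen. The members and lists were chosen with earlier results of these data known. Scripts (Python 3.11.15, statsmodels 0.14.6 for loess) were tested on simulated data.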

Additional observations from a re-analysis of the deposited data

How the results depend on the processing

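Gstm2, Gstm3 and Gstm4 were at least 2-fold lower under all 13 alternatives of scaling, filter, floor and probe-set choice. Gstm2 and Gstm4 each had 1 probe set, well above the floor, so only the 5 other scalings could change their ratios. Those ratios ranged from -1.94 to -1.62 for Gstm2 and from -1.66 to -1.34 for Gstm4. The median log2 ratio of the transferases was -1.22 without probe sets ending in _a_at, _s_at, _x_at or _f_at, which removes Gsta2, Gstm6 and Gstp1 and leaves 7 genes, and lay from -0.69 to -0.37 otherwise. With a size rule of 1.5-fold, 5 transferases were lower and 1 was higher, among all genes 2038 lower and 1296 higher. With 3-fold, Gstm2 (3.49-fold) and Gstm3 (17.0-fold) were still lower and Gstm4 (2.88-fold) no longer counted. Among all genes, 409 were then lower and 102 higher. Higher genes numbered 707 with scaling on the poly-A controls, 210 with a filter at the 70th percentile, where 564 were lower, and 250 with a floor at the 60th percentile. Poly-A scaling put the all-gene median at 0.16, against -0.12 after centring on medians and -0.16 with scaling on the hybridisation controls. A log2 ratio or median was called moved when it shifted by more than 0.446, the SD between probe sets of a gene, and a count when it differed by more than 1.5 times. Among values of the transferase counts, their median and the all-gene counts, 11 moved and 62 did not. Among the other values, 50 moved and 722 did not. No listed ratio that was past 2-fold with the arrays as deposited changed sign under the 5 other scalings. Cd8a, at 0.64 as deposited, turned negative and passed 2-fold under 1 of them (-1.465). No paired analysis was possible because each genotype had 1 array.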

Other observations

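Genes of hepatocyte zones were measured as lists too. Of 11 measured periportal genes, 5 passed 2-fold upwards in the knockout and 1 downwards, with a median of 0.87. Hal, which degrades histidine, read 7496 in the knockout and 1079 in the wild type (2.80), and Etnppl read 7930 against 1273 (2.64). The urea cycle genes Ass1 (673 in the knockout and 141 in the wild type, 2.26) and Asl (18433 against 6843, 1.43) followed. Each was read by 1 kept probe set, and that of Ass1 was far dimmer. Cdh1, also a bile duct marker, was the lower gene (-1.66). Of 12 measured pericentral genes, 3 passed upwards and 1 downwards, with a median of 0.37. Oat, the ornithine aminotransferase, read 17643 in the knockout and 5768 in the wild type (1.61), and Slc1a2, a glutamate transporter, 1977 against 893 (1.15). Cldn2, a claudin, read 1040 against 2389 (-1.20).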
